A study of Mus musculus with 15 samples.

Results

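H3K27ac peaks were examined at 10 genes for the non-collagen matrix, surface and cytoskeletal proteins of fibroblasts and mesenchymal cells: Vim, Sparc, Fn1, Tnc, Postn, Thy1, Fap, Fbn1, Dcn and Lum. They were chosen by name, as 10 of 21000 mouse protein-coding genes with a curated RefSeq start site. Each peak overlapping the gene or the 50 kb on either side was counted, which took 148 of the 122375 peaks in the list. A peak was assigned to the promoter if it overlapped the 2 kb on either side of a start site, otherwise to the gene body if it overlapped the gene, and otherwise to the flank.

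The study compared fusion-positive rhabdomyosarcoma (FP-RMS), a muscle-like soft tissue cancer of children that carries the PAX3-FOXO1 (P3F) fusion, between 2 mouse models. CUT&RUN releases the DNA beside an antibody with a tethered nuclease, and was used here for acetylation of lysine 27 of histone H3 (H3K27ac), a mark of active promoters and enhancers, with IgG as background. Of 15 libraries, the values below come from 1 peak list of MCP H3K27ac, so there are no replicates and no comparison between tumor models was made. The list was assigned to replicate 5 by the number in its peak names, which that library's label also holds, and was taken as a single library. The MCP mice carried Myf6-Cre, Cdkn2a(Flox/Flox), the fusion allele written Pax(3P3F/P3F), and R26-tdTom. Myf6-Cre acts in myogenic cells, where it removes Cdkn2a, turns on P3F and switches on the red fluorescent reporter. Tumors were dissociated, and per the study's methods live tumor cells were isolated by cell sorting, with DAPI as the stain for dead cells, before nuclei were prepared. Age and sex of the animal are not given in the sources used here. Fewer marked cells cannot be told apart from less mark per cell in a peak list.

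Fibroblasts and other mesenchymal cells secrete a matrix of adhesive glycoproteins, microfibrils and proteoglycans around a collagen scaffold, and carry surface proteins by which they are sorted. Several of these genes rise when connective tissue is repaired and in the stroma of tumors, and mesenchymal features also occur in rhabdomyosarcoma cells. Vim and Sparc are used by many cell types beside fibroblasts, whereas Dcn and Lum are more restricted to connective tissue.

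The sequences that carried the strongest signal, or lay at a start site with a peak on or beside it, are shown here. The first 3 are the 250 bases before a start site on the strand of the gene, from RefSeq on build GRCm38.p6 (mm10), and the other 4 are the 201 bases around a peak summit on the plus strand of the same build. Capitals mark matches, on either strand, to AP-1 (TGANTCA), E-box (CAGCTG), TEAD (GGAATG), RUNX (TGTGGT), SP/KLF (GGGCGG), NF-Y (CCAAT), TATA box (TATAAA), homeodomain (TAATTA) and CArG box motifs. No matches shown overlapped each other.
Vim promoter, chr2:13574061-13574310, plus strand: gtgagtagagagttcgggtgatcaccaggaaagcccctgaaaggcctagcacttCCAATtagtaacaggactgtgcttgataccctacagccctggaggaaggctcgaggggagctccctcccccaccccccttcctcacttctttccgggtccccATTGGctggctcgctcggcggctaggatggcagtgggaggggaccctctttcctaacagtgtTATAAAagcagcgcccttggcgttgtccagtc
Sparc promoter, chr11:55420081-55420330, minus strand: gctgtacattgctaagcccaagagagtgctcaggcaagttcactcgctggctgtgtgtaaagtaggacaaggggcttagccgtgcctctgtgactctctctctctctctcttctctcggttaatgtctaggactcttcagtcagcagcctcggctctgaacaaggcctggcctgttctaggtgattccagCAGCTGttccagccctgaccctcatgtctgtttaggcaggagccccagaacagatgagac
Postn promoter, chr3:54359017-54359266, plus strand: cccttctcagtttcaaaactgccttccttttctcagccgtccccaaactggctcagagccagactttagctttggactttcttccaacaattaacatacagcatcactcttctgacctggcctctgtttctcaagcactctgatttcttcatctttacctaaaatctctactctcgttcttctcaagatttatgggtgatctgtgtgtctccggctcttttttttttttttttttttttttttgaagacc
Vim summit 17.2 kb upstream, chr2:13556973-13557173: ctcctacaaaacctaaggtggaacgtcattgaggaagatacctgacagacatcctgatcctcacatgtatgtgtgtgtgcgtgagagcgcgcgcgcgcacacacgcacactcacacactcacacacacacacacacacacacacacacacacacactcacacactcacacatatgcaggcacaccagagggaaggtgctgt
Vim summit 1.80 kb upstream, chr2:13572414-13572614: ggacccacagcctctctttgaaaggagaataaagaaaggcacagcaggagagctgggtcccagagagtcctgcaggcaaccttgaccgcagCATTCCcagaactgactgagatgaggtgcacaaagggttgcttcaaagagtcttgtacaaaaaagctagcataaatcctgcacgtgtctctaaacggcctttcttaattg
Sparc summit in intron 4, chr11:55405704-55405904: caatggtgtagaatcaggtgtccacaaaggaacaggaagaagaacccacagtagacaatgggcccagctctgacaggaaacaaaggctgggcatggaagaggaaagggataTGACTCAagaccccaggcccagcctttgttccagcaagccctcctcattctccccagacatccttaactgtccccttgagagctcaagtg
Tnc summit 36.7 kb upstream, chr4:64083605-64083805: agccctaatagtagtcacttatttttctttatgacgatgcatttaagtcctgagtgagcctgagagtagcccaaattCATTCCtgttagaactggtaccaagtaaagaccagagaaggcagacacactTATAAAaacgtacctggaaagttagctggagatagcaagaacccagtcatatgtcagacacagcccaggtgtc

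In the Vim promoter the capitals are an NF-Y match at position -196, a second on the other strand at -94, and a TATA box at -32, counted back from the start site. The capitals in the Sparc promoter are an E-box at -60, and the Postn promoter shown, that of the first of its 2 start sites, held no match. The 250 bases before the second Postn start site held a TATA box at -26. Promoter sequences were matched for Vim, Sparc, Postn, Tnc and Fbn1, and not for Fn1, Thy1, Fap, Dcn and Lum. Of 32851 promoter windows of this length, 12.4% held the TATA box, 33.8% the NF-Y motif and 13.0% the E-box.

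The 148 peaks lay unevenly over the genes. Sparc, a secreted calcium-binding glycoprotein that binds collagen, had 56, and Vim, which encodes the intermediate filament protein vimentin, had 39. Together they held 95 of the 148 peaks (64.2%). Fn1 (fibronectin) had 19, Tnc (tenascin C) 15, Fbn1 (fibrillin 1) 10, Fap (fibroblast activation protein) 5 and Postn (periostin) 2. Thy1 and Dcn had 1 each, both in the flank, and Lum had 0. By class, 14 peaks lay at a promoter, 40 in a gene body and 94 in a flank, and the loci shared 0 peaks. Of the flank peaks, 12 lay within 2 kb of the start site of another gene, with 3 beside Vim at Trdmt1, 5 beside Sparc at Atox1 and G3bp1, and 4 beside Fn1 at Atic.

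**Figure D1:**
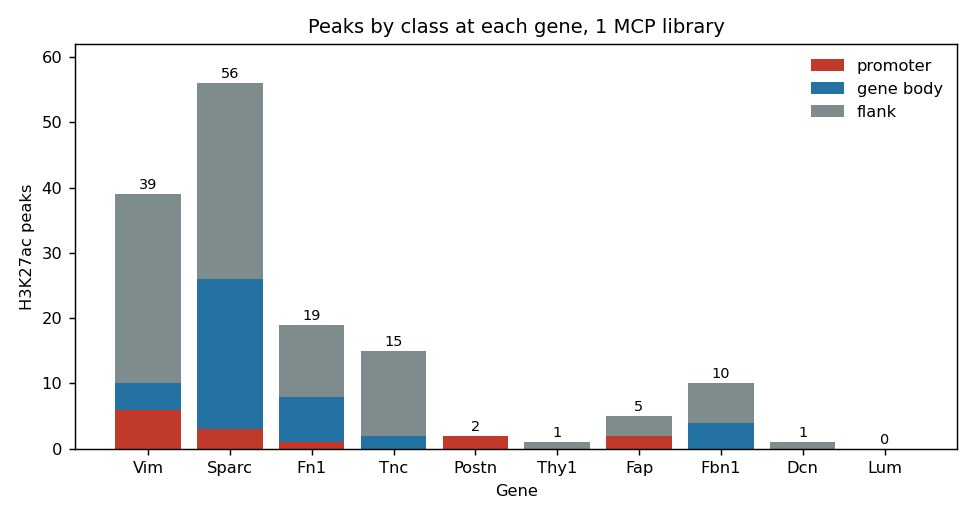
Number of H3K27ac peaks at each gene in 1 MCP library, stacked by class (promoter in red, gene body in blue, flank in gray), with the total above each bar. Sparc (56) and Vim (39) held most of the 148 peaks, whereas Thy1, Dcn and Lum had no red or blue segment.

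A promoter peak was present at 5 of the 10 genes (50%, Wilson 95% interval 23.7% to 76.3%), namely Vim, Sparc, Fn1, Postn and Fap. The share over all protein-coding genes was 45.6%, inside that interval. A gene body peak outside the promoter was also present at 5 of 10, namely Vim, Sparc, Fn1, Tnc and Fbn1, against 33.2% of all protein-coding genes. That share was not matched for gene length. Fn1, Tnc, Fap and Fbn1 were in the longest of 5 length classes of protein-coding genes, and Sparc, Postn and Dcn in the next. At least 1 peak of any class was present at 9 of 10, against 77.9%. Both of these backgrounds also lay inside the Wilson intervals of the 10 genes (23.7% to 76.3% and 59.6% to 98.2%). The genes were chosen by name and not sampled at random. The intervals therefore only show how coarse a share of 10 is and are not a test. When -log10 q had to be 5 or more, the promoter peaks of Fn1 and Fap dropped out, which left 3 genes against 37.9% of all genes, and the body peaks were left at Vim and Sparc, which is 2 genes against 24.4%.

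Fold enrichment is the caller's ratio of the fragments over the summit, scaled by 0.885 for library depth, to the local IgG background, with 1 added to each. Over the 148 peaks its median was 4.94, and over the whole list it was 5.22. The 95 peaks at Vim and Sparc had a median fold of 5.46 and a median width of 212 bp, and the 53 peaks at the other genes 4.46 and 112 bp. The number of fragments over a summit, recovered from the list, had a median of 12 at these genes and 13 over all peaks, and 126 of the 148 peaks had fewer than 20. Many weak peaks therefore had the same fold, such as 4.36 for 9 fragments over the lowest background of 1.05. Poisson 95% intervals below come from these fragments and cover their counting error only. For the fold intervals the IgG background was held fixed, so its own counting error is left out.

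**Figure D2:**
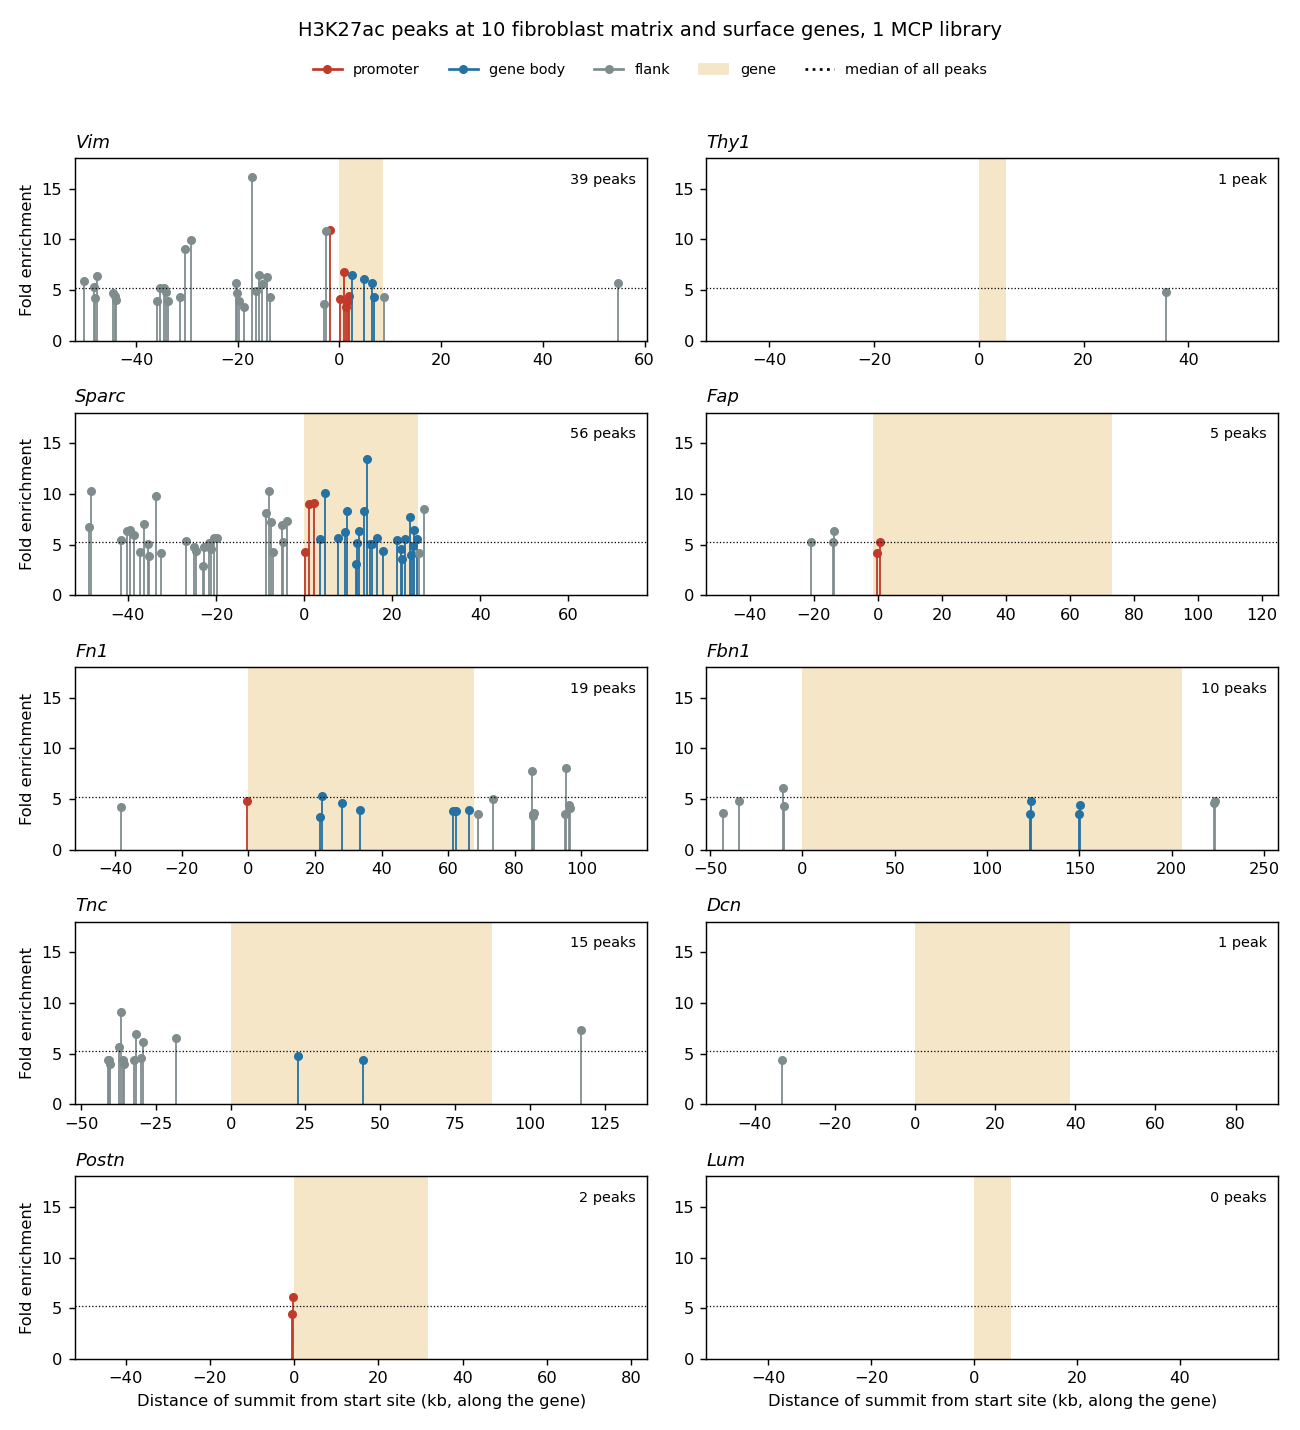
Fold enrichment of each H3K27ac peak against the distance of its summit from the start site of the gene (kb, positive in the direction of transcription), 1 panel per gene, in 1 MCP library. Red, blue and gray stems are promoter, gene body and flank peaks, the shaded span is the gene, and the dotted line is the median fold of all peaks (5.22). Tall stems stood upstream of Vim, across Sparc and upstream of Tnc, and the Thy1, Dcn and Lum panels were empty near the gene.

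Vim lies on chromosome 2 (13574311 to 13582826, plus strand). Its strongest peak was in the flank, 17.2 kb upstream of the start site (chr2:13556409-13557564), with a fold of 16.2 (95% interval 11.6 to 22.0) and 38 fragments. It was the highest fold among the 148 peaks. The 201 bases around its summit, shown above, hold a CA repeat of 37 bases and no match to the motifs searched. How such a repeat bears on the fragment number was not tested. Between that peak and 13.7 kb upstream, 5 further peaks had folds between 4.32 and 6.53.

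The strongest promoter peak of Vim was centered 1.80 kb upstream (chr2:13572026-13573197) with a fold of 10.9 (7.77 to 15.0) and 36 fragments, and its window above holds a TEAD match that begins 9 bases before the summit. A peak just beyond the promoter window, 2.56 kb upstream, had a fold of 10.8 (7.11 to 15.9) and counted as flank. The other 5 promoter peaks were weaker. They had folds between 3.35 and 6.77, and summits from 0.186 to 1.92 kb downstream of the start site. The 250 bases before the start site overlapped no peak, and the peak nearest to it, with its summit in exon 1, had 12 fragments. Vim had 4 gene body peaks, in introns 2, 4 and 7 and exon 7, with folds of 4.36 to 6.49. In the upstream flank, 18 of the peaks had summits within Trdmt1 or Gm9875, and the peak 29.3 kb upstream, at the Trdmt1 start site, had a fold of 9.98 with 44 fragments.

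Sparc lies on chromosome 11 (55394159 to 55420080, minus strand) and had peaks along its whole length. A 1197 bp peak covered the start site with a fold of 4.23 (2.61 to 6.54). The other promoter peaks, in intron 1, had folds of 9.03 and 9.09 with 25 and 30 fragments. The peak at the start site was therefore the weakest of the 3. The strongest, with its summit 2.33 kb downstream, counted as promoter because its edge overlapped the 2 kb window. Of the 23 gene body peaks, the strongest lay in intron 4, 14.3 kb downstream of the start site, with a fold of 13.5 (9.31 to 18.9) and 31 fragments. Its window above holds an AP-1 match that begins 11 bases after the summit. The widest of all 148 peaks, 2941 bp, lay in intron 1 with a fold of 10.1. Upstream of Sparc, peaks 7.99 and 8.60 kb away had folds of 10.2 and 8.16, and the latter had 45 fragments, the most at these genes. The peak 48.4 kb upstream, with a fold of 10.3, lay at the start site of G3bp1.

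Both loci were denser in peaks than most genes. Sparc had 44.5 peaks per 100 kb, and 110 of the 21000 genes had at least that density (99.5th percentile). Vim had 35.9 per 100 kb (98.3rd percentile), and the median gene had 5.62. Against the 5 Mb around each gene, density was 5.86 times as high at Sparc and 6.92 times as high at Vim. Many of these peaks were separated from the next by short gaps. When peaks with gaps of at most 1 kb were joined, an alternative added after the data were seen, 11 remained at Sparc and 12 at Vim, and the percentiles were 94.1 and 98.4.

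Peaks outside start sites were then stitched across gaps of up to 12.5 kb and ranked by fold times width, after the way super-enhancers are defined in the study but without read coverage. Of 20840 clusters, 864 (4.15%) lay above the point where the ranked scores turn upward. A cluster of 70 peaks over 113 kb overlapped Sparc (rank 70), and one of 38 peaks over 60.6 kb overlapped Vim (rank 372), both above that limit. The 4.15% is a share of clusters and not of genes. The share of all protein-coding genes overlapped by such a cluster was not counted, so 2 of 10 members has no background here. The Sparc cluster also reached Atox1 and extended past the start site of G3bp1, and the Vim cluster also reached Trdmt1. Neither cluster therefore belongs to the named gene alone. The clusters that overlapped Fn1, Tnc and Fbn1 were below the limit, with ranks from 6844 to 20109, and Postn, Thy1, Fap, Dcn and Lum were overlapped by 0 clusters. With a stitching distance of 5 kb the Vim cluster fell to rank 2122 and below the limit, and Sparc stayed above it at rank 95.

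**Figure D3:**
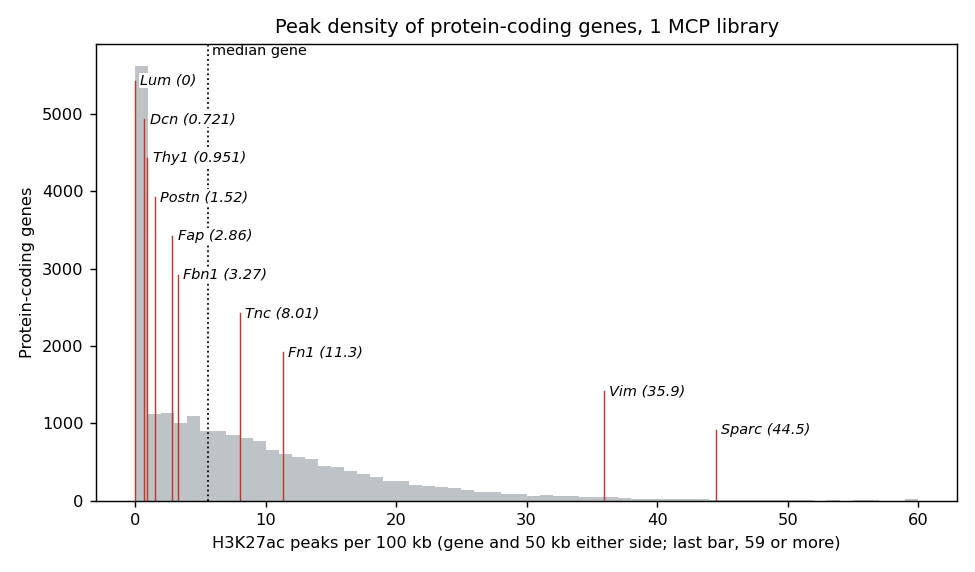
Histogram of H3K27ac peaks per 100 kb over 21000 protein-coding genes in 1 MCP library (gene and 50 kb either side), with red lines for the 10 genes and their densities and a dotted line for the median gene (5.62). Sparc (44.5) and Vim (35.9) stood in the right tail, and 6 of the 10 genes lay left of the median.

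Fn1 and Tnc encode large adhesive glycoproteins, which cells bind through integrins. Fn1, on chromosome 1 (71585473 to 71653280, minus strand), had 1 promoter peak, 0.419 kb upstream, with a fold of 4.77 (2.61 to 8.19) and 11 fragments. That peak also lay within the promoter window of Apol7d, so it cannot be assigned to Fn1 alone. Its 7 gene body peaks had folds of 3.28 to 5.33, and the strongest lay in intron 13. The strongest Fn1 peaks were downstream, at the start site of Atic (fold 8.04, 20 fragments) and inside Atic (fold 7.73, 26 fragments). Fn1 had 11.3 peaks per 100 kb (71.8th percentile), and 17 of its 19 peaks had fewer than 20 fragments. Its place above the median gene did not hold when -log10 q had to be 5 or more, where 2 peaks remained and the percentile was 37.1. Its density was 1.22 times that of the 5 Mb around it and 0.623 times that of the 2 Mb around it.

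Tnc, on chromosome 4 (63959785 to 64047015, minus strand), had 0 promoter peaks. The nearest summit was 18.4 kb upstream with a fold of 6.51. Of its 15 peaks, 12 lay upstream in a stretch from 18.4 to 41.1 kb before the start site, all with summits inside the long noncoding RNA gene 8030451A03Rik, which overlaps Tnc. The strongest of these was 36.7 kb upstream (chr4:64083520-64084073), with a fold of 9.10 (5.75 to 13.8) and 20 fragments. Its window above holds a TEAD match that begins 23 bases before the summit and a TATA box match 28 bases after it. The 2 gene body peaks, in introns 1 and 10, had folds of 4.79 and 4.36, and their summits also lay inside 8030451A03Rik. Tnc had 8.01 peaks per 100 kb (60.2nd percentile), but with a flank of 25 kb, which leaves out most of that stretch, it was at the 37.6th percentile.

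Postn encodes a secreted matrix protein of repairing tissue and stroma. The gene, on chromosome 3 (54359267 to 54391041, plus strand), had 2 peaks, both at the promoter and 0 elsewhere. They were centered 0.450 and 0.259 kb upstream of the first start site, with folds of 4.45 (2.78 to 6.81) and 6.08 (3.47 to 10.1) and with 19 and 13 fragments. The second (chr3:54358965-54359159) overlapped the promoter sequence shown above. Among the members with a promoter peak, Postn was the only one with no other peak, and its locus had 1.52 peaks per 100 kb, which was 0.216 times the density of the 5 Mb around it and 0.766 times that of the 2 Mb around it.

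Fap and Thy1 encode cell surface proteins of fibroblasts, a serine protease and a small glycoprotein held by a lipid anchor. Fap, on chromosome 2 (62500936 to 62575509, minus strand), had promoter peaks 0.593 kb downstream and 0.296 kb upstream of its start site, with folds of 5.22 (2.85 to 8.96) and 4.13 (2.14 to 7.42). Both rest on few fragments, 11 and 9. Its 3 other peaks were upstream, and the strongest of these, 13.7 kb away, had a fold of 6.35 and 15 fragments. Thy1, on chromosome 9 (44043384 to 44048579, plus strand), had 1 peak, 35.8 kb downstream and inside Usp2, with a fold of 4.79 and 10 fragments. No peak was called at its promoter or body, and its density was 0.117 times that of the 5 Mb around it.

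Fbn1 encodes fibrillin 1, the main protein of the microfibrils on which elastic fibers form. The gene, on chromosome 2 (125300594 to 125506485, minus strand), spans 206 kb and had 0 promoter peaks and 4 gene body peaks, in introns 14 and 32, with folds of 3.50 to 4.79. All 10 of its peaks had fewer than 15 fragments, and the strongest, 10.7 kb upstream, had a fold of 6.08 and 13 fragments. Of 951 protein-coding genes at least as long, 34.7% had a promoter peak and the median number of body peaks was 5. Among them 445 had 4 or fewer body peaks.

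Dcn and Lum encode decorin and lumican, small leucine-rich proteoglycans that bind collagen fibrils, and lie near each other on chromosome 10 (97479500 to 97518163 and 97565501 to 97572703, both plus strand). Dcn had 1 peak, 33.2 kb upstream, with a fold of 4.36 (2.26 to 7.84) and 9 fragments. Lum had 0 peaks, and the nearest summit, 58.7 kb from its start site and just outside the counted region, had a fold of 3.93. The counted regions of Dcn and Lum overlap, so part of the stretch without peaks was counted for both. Some 4640 protein-coding genes (22.1%) likewise had 0 peaks. Kera and Epyc, the related proteoglycan genes downstream of Lum, had 6 and 7 peaks, all in their flanks. The 6 peaks of Kera lay in a region that was also counted for Epyc. With a flank of 100 kb Lum had 2.90 peaks per 100 kb (32.1st percentile). The lowest number of fragments over a summit was 6 in the whole list and 7 among the 148 peaks, so a mark at Dcn, Lum or Thy1 that gave fewer fragments would not be in the list.

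The strongest promoter peak had a median fold of 6.08 over the 5 genes that had one, and 7.24 over the 9569 protein-coding genes that had one. Vim was at the 86.4th percentile of those genes and Sparc at the 71.0th. With a promoter window of 1 kb, which leaves out the peak 1.80 kb upstream, the strongest promoter peak of Vim had a fold of 6.77 and 15 fragments. That of Sparc then had a fold of 9.03 and 25 fragments. Postn, Fap and Fn1 were at the 32.3rd, 18.3rd and 10.5th. The intervals of the fragments at these peaks overlapped between Vim (25.2 to 49.8) and Sparc (20.2 to 42.8), and the Vim interval lay above those of Postn (6.92 to 22.2), Fap and Fn1 (both 5.49 to 19.7). With the 1 kb window the Vim interval was 8.40 to 24.7 and overlapped all of these.

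**Figure D4:**
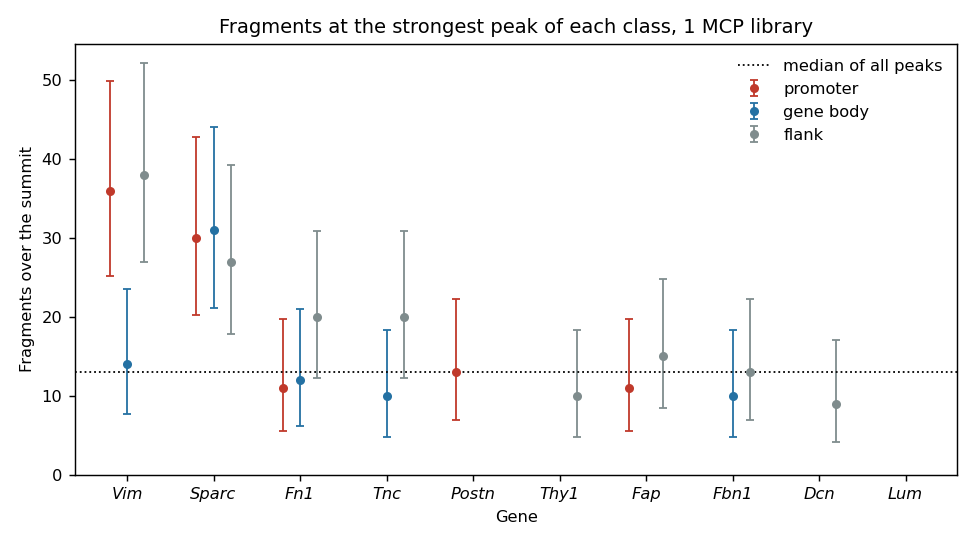
Fragments over the summit of the strongest peak by fold in each class at each gene, in 1 MCP library. Points are recovered fragment numbers, bars are exact Poisson 95% intervals and the dotted line is the median of all peaks (13). The promoter and flank points of Vim and all points of Sparc had intervals above the dotted line, and the others had intervals across it.

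Promoter peaks are called more often at start sites where CpG dinucleotides are frequent for the C and G content. The genes were therefore also placed in 10 classes by the ratio of observed to expected CpG within 500 bp of the most upstream start site. In the class of Vim, Fn1 and Fbn1, 60.4% of genes had a promoter peak, in that of Tnc 43.4%, in that of Postn, Thy1 and Fap 25.6%, and in that of Sparc, Dcn and Lum 17.4%. Sparc, Postn and Fap thus had a promoter peak in classes where most genes had none, and Fbn1 lacked one in a class where most genes had one. A single gene in a class gives no error for this comparison.

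The 201-base windows around the 148 summits were searched for the same motifs. The TEAD motif was in 27 (18.2%) and in 11.4% of all 122375 summit windows, the homeodomain motif in 12 (8.11%) against 5.62%, and the AP-1 motif in 12 (8.11%) against 8.05%. The E-box was in 17 (11.5%) against 10.0%, the RUNX motif in 26 (17.6%) against 15.9% and the NF-Y motif in 37 (25.0%) against 22.3%. The TATA box was in 21 (14.2%) against 13.0%, the SP/KLF motif in 7 (4.73%) against 4.14%, and the CArG box in 0 against 0.990%. Most of these windows belong to Vim and Sparc and neighboring windows can overlap, so no test was made of the shares.

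Genes that work with the members were counted in the same way, each count beside the share of genes with a promoter peak in the same CpG classes. Of the fibronectin and tenascin receptors, 5 of 9 had a promoter peak (66.1%), among them the integrin genes Itgav, Itgb1 and Itga5, with folds of 9.53, 9.10 and 7.77. Matricellular relatives of Sparc, Tnc and Postn had one in 3 of 13 (44.5%), with the strongest at Sparcl1 (fold 9.96). Of the small leucine-rich proteoglycans beside Dcn and Lum, 1 of 8 had one (12.2%), Omd, with a fold of 10.8. Of the elastic fiber genes 6 of 14 had one (40.9%), and Fbn2, the paralog of Fbn1, had 0 promoter peaks. Matrix enzymes and inhibitors had one in 9 of 14 (44.2%) and intermediate filament genes in 4 of 7 (48.7%). Other fibroblast surface genes had one in 6 of 9 (31.9%), among them Pdgfra (fold 5.35). Collagens had one in 6 of 13 (41.2%) and mesenchymal transcription factors in 6 of 10 (61.4%). For the members themselves, 5 of 10, the CpG-class share was 35.3%. Median density was 3.07 per 100 kb over the 10 members and 2.19 without Vim and Sparc, and lower than that of each of these lists, the lowest of which was 4.35 for the collagens.

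Marker genes were used to check the labelled cell type, and beside each count stands the share of genes with a promoter peak in the same CpG classes. Of 10 myogenic markers 1 had a promoter peak (31.6%), Myf6, whose locus carries the Cre of the model. Any peak was present at 7 of the 10, against 77.9% of all protein-coding genes. The other lists had any peak at 7 of 8 endothelial, 6 of 6 pericyte and smooth muscle, 5 of 7 immune and 9 of 10 fibroblast-like markers. Gene body peaks were present at 0 of 10 myogenic markers, against 33.2% of all protein-coding genes. They were present at 4 of 8 endothelial, 3 of 6 pericyte and smooth muscle, 0 of 7 immune and 2 of 10 fibroblast-like markers. Myf5 had 29 flank peaks, in a flank shared with its neighbor Myf6. Chrna1 had 17, Des 15, Myod1 11, Myh3 10 and Cdh15 7, all in the flank, whereas Myog, Pax7 and Actc1 had 0 peaks. Endothelial markers had a promoter peak in 0 of 8 (28.1%), pericyte and smooth muscle markers in 0 of 6 (35.3%) and immune markers in 1 of 7, at Cd68 (13.4%). Fibroblast-like markers had one in 5 of 10 (25.0%), and Fn1, Postn, Fap, Thy1, Dcn and Lum are themselves in that list. Median density per 100 kb was 9.39 for myogenic, 6.05 for endothelial and 5.18 for pericyte and smooth muscle markers. It was 1.86 for fibroblast-like and 1.80 for immune markers, and the median gene had 5.62. Counts this small do not identify a cell type, and what part cells other than tumor cells had in the members' peaks was not tested. The study also described MCP tumors as varied, with focal MYOD1 and MYOGENIN staining. It judged that staining closer to tumors of mesenchymal and epithelial differentiation. Whether the tumor of this library stained in that way is not given in the sources used here.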

How the data were processed

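Fusion-positive tumors of MCP mice were profiled for H3K27ac by CUT&RUN, and 1 deposited peak list was used. Per the study's methods the authors aligned paired reads to mm10 with bowtie, removed problematic regions and called peaks with an early MACS release against IgG, whereas the submitters' processing notes name BWA, SAMtools, MACS2, mm10 and dm6, so the caller's settings are not known here. The score in the deposited list is the whole part of 10 times -log10 q (100% of peaks). Fold enrichment is deposited as a ratio over background. The -log10 p and -log10 q are deposited as the authors' caller gave them; the largest q was 0.0471. The authors' peak numbering lacked 584 numbers, 0 of them in the 10 loci.

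Fragments were solved from fold and p with 1 scale, 0.885, and 99.9992% of peaks gave a whole number within 0.01 (3.53% of a sample of peaks with the scale 3% off), 96.3% exactly 1. They are inferred from the caller's formula and are not read counts. Genes and start sites were taken from RefSeq (GRCm38.p6, NM and NR transcripts). Shares have Wilson and fragments exact Poisson 95% intervals. No test was made, since 1 list holds no replicates. Peak assignment and fragment recovery were tested on simulated data. All 10 members were named, with the strongest peak of each class, and other genes where listed, overlapping or at a flank peak. Members and lists were chosen with earlier results of these data known. Python 3.11.15, pandas 2.3.3, scipy 1.17.1, statsmodels 0.14.6 and pysam 0.24.0 were used.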

Additional observations from a re-analysis of the deposited data

How the results depend on the processing

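No paired analysis was possible because 1 peak list of 1 library was used. The counts at the 10 genes moved with the threshold. With -log10 q of 5 or more there were 66 peaks (6 promoter, 17 gene body, 43 flank). Then 3 genes had a promoter peak and 2 a body peak, against 37.9% and 24.4% of all protein-coding genes. With the strongest 25% of all peaks there were 35 (4, 7 and 24). Then 2 genes had a promoter peak and 1 a body peak, against 29.3% and 17.9% of all protein-coding genes. A flank of 25 kb gave 97 peaks with 43 in the flank, a flank of 100 kb gave 168 in the flank, and a promoter window of 1 kb gave 9 promoter peaks, as fewer or more bases are counted. Joining peaks with gaps of at most 1 kb, chosen after the data were seen, gave 54. A stitching distance of 5 kb left 1 gene under a cluster above the limit. Density percentiles crossed the median for Fn1 (37.1 with -log10 q of 5 or more, 49.8 with the strongest 25%) and for Tnc (37.6 with a flank of 25 kb, 47.6 by length covered). Local density ratios crossed 1 for Fn1 (0.623 in 2 Mb, 0.472 with the strongest 25%) and Fap (1.69 in 2 Mb). The cause was not tested beyond the settings themselves. Of 57 recomputed counts and medians, 39 moved by at most 1.5 times or stayed within the counting interval. Some of the 39 could not change. The total was 148 with a promoter window of 1 kb and with the start sites of all RefSeq transcripts, which shift only the class of a peak. Most peaks rest on fewer than 20 fragments, so an absent peak is not an absent mark.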
